A study of Mus musculus with 4 samples.

Results

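The cells described here are 731 barcodes from mouse molars at postnatal day 1 (P1) that hold epithelial transcripts together with transcripts of Notch1, Alpl, Cygb and Vat1l, genes that mark the stellate reticulum and the stratum intermedium (SR/SI). They came from the maxillary library (347 barcodes) and the mandibular library (384 barcodes), of 56940 barcodes in the whole series. A barcode was taken when it had at least 1000 UMIs (each UMI marks 1 captured RNA molecule) and under 10% mitochondrial UMIs. It also needed at least 3 UMIs summed over Epcam, Cdh1, Krt14 and Krt5, and at least 3 summed over the 4 SR/SI genes. At most 1 UMI was allowed for Ambn, Enam and Mmp20 (ameloblast genes), 2 for Krt13, Krt4 and Krt6a (suprabasal oral keratins) and 5 for Col1a1, Col1a2 and Col3a1 (mesenchymal collagens). The choice used UMI counts of these same cells, so levels of the genes in the rule describe the selection and are not results, and comparisons with other epithelial cells are descriptions.

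The series profiled molar tooth organs of untreated wild-type mice, genotype WTB6 in the labels, by droplet single-cell RNA sequencing in the embryo at E15.5 (written E15 in the labels) and at P1 (pups described as P0/P1). Maxillary and mandibular molars were kept apart, and 6 tooth organs were pooled in each library. With 1 library per stage and jaw there is no replicate and no test, and every interval given is an exact 95% interval for counting error only. Total UMIs were 128812956 in the P1 maxillary library, 139873101 in the P1 mandibular, 109723360 in the E15.5 maxillary and 86659227 in the E15.5 mandibular.

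The stellate reticulum is the loose, star-shaped cell population in the core of the enamel organ, held together by desmosomes in a matrix rich in glycosaminoglycans. The stratum intermedium is the flat layer between it and the ameloblasts, known for strong alkaline phosphatase activity and for Notch signaling with the neighbouring ameloblast layer, and it is thought to supply mineral ions and signals to ameloblasts. Both derive from the dental epithelium and do not make enamel matrix.

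The P1 libraries were not separate sets of barcodes. They had 7131 barcodes in common, against 28 to 70 for every other pair of libraries, and the rule therefore dropped the shared ones from the mandibular library. Of the 347 maxillary SR/SI rule cells, 322 (92.8%) carried a shared barcode, against 42.0% of all maxillary barcodes that passed the depth and mitochondrial limits. The maxillary counts of these 322 barcodes had a median of 12533.5 UMIs and their mandibular copies a median of 2994 UMIs, and the ratio was nearly constant (median log2 ratio 2.08, 5th to 95th percentile 2.01 to 2.19). From which jaw these cells came cannot be told apart from the files. A value found in both P1 libraries may thus not be agreement of independent samples. Maxillary values are therefore given for all cells, and beside the main comparisons also for shared barcodes alone. The 25 maxillary cells with a barcode of their own are set out separately further on.

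Among the barcodes that passed the depth and mitochondrial limits, the rule cells were 347 of 16486 in the maxillary library (2.10%, interval 1.89 to 2.34) and 384 of 9417 in the mandibular (4.08%, interval 3.69 to 4.50). These shares have unlike denominators, because 6597 passing barcodes had been dropped from the mandibular library alone. Among barcodes with the epithelial transcripts, the shares were 12.5% and 18.4%. The rule cells were deep, with medians of 12281 and 13504 UMIs per cell in the maxillary and mandibular libraries, against 4563 and 6817 in the other epithelial cells that pass the same gates with at most 2 UMIs of the 4 SR/SI genes (1492 and 507 cells). A sum of at least 3 UMIs is reached more easily in deep cells, so depth and class move together, and shares of cells are also given after thinning every cell to 2000 UMIs. Thinning left out 5 and 0 rule cells, 162 and 90 other epithelial cells and 108 and 26 leukocytes, which were shallower.

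Of the genes in the rule, Alpl carried most of the selection. Alpl encodes tissue-nonspecific alkaline phosphatase, lies at chr4:137741733-137796384 (minus strand, mm10) and was found in 287 of 347 maxillary and 341 of 384 mandibular rule cells. Notch1 (chr2:26457903-26516663, minus strand), a receptor of the Notch pathway, was found in 202 and 232 cells. Cygb (chr11:116645595-116654313, minus strand), which encodes the globin cytoglobin, was found in 65 and 84 cells, and Vat1l (chr8:114205612-114374071, plus strand) in 48 and 53 cells. Most of the UMIs of the 4 genes came from Alpl in 240 maxillary and 295 mandibular cells, from Notch1 in 48 and 39, from Vat1l in 34 and 28 and from Cygb in 5 and 3. The commonest combination was Notch1 with Alpl alone among the 4 (127 and 145 cells), and next came Alpl on its own (93 and 99 cells). All 4 genes together were found in 1 maxillary and 4 mandibular cells. The rule thus gathers cells that are chiefly Alpl-positive, with smaller sets chosen mainly through Notch1 and through Vat1l.

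The label was checked on genes that the rule did not use. Of 8 genes listed as SR/SI markers, only Jph4 and Notch2 reached 20 CPM in either class of both libraries, and both were higher in the rule cells. Tafa4, another of the 8, stood at 10.1 and 11.1 CPM against 16.4 and 22.1 CPM, and Hey2 stood at 7.80 and 7.27 CPM against 2.49 and 5.27 CPM, so the label rests on few markers. CPM is the sum of a gene's UMIs over a class of cells per 1000000 UMIs of that class. Jph4, a junctophilin, which ties the plasma membrane to the endoplasmic reticulum, was found in 117 of 347 maxillary (33.7%) and 155 of 384 mandibular rule cells (40.4%), against 4.42% and 8.88% of other epithelial cells. At 2000 UMIs per cell the Jph4 share was 17.5% and 26.0% in the rule cells, 1.13% and 5.04% in the other epithelium and 0.568% in leukocytes of each library, which should lack it. Jph4 thus marked a part of the rule cells and few others. The defining enamel genes Ambn, Enam and Mmp20 were at or below 3.95 CPM, as the rule requires.

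**Figure D1:**
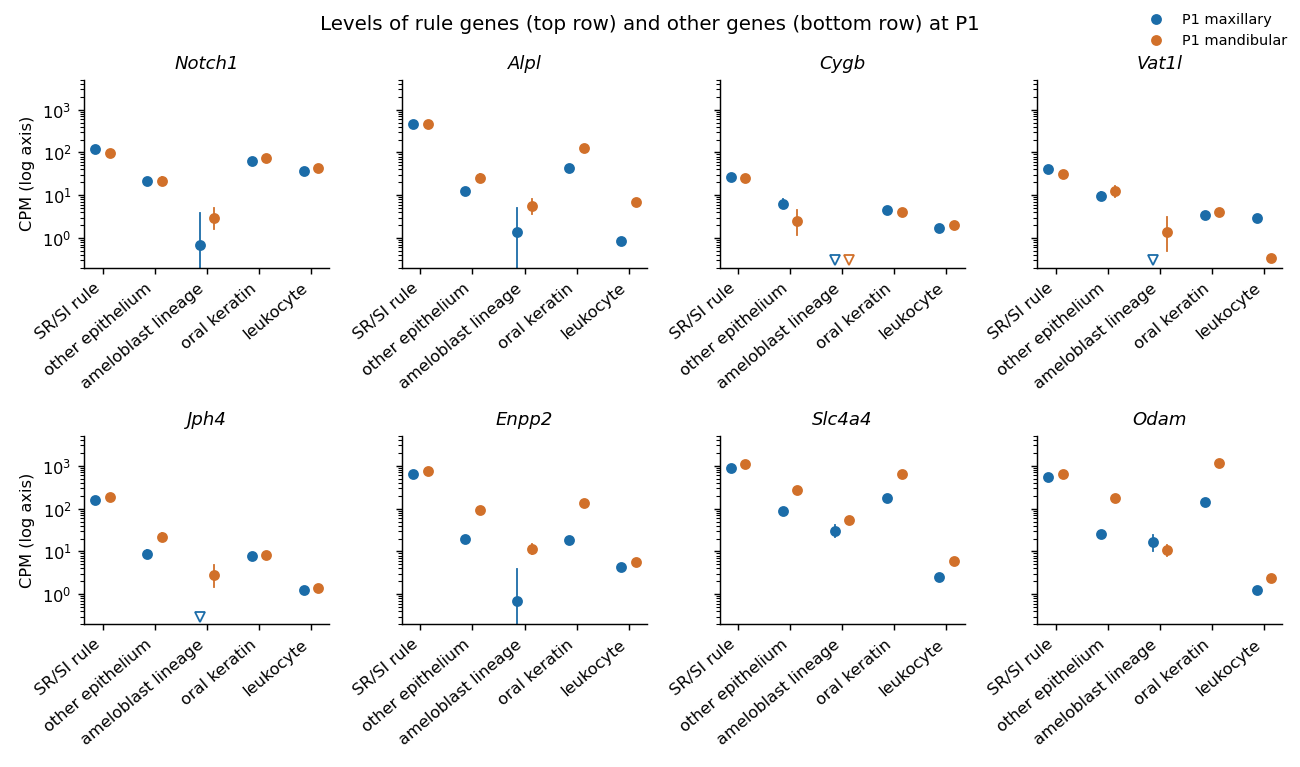
Level in CPM (log axis) of the 4 SR/SI rule genes (top row) and of Jph4, Enpp2, Slc4a4 and Odam (bottom row) in 5 classes of P1 cells, with 1 point per library and exact 95% Poisson bars on the first 3 classes; open triangles stand for 0 UMIs. Enpp2 and Slc4a4 are highest in the SR/SI rule cells of both libraries, while mandibular Odam is higher in the oral keratin class, which holds cells with at least 3 UMIs of Krt13, Krt4 and Krt6a.

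Against the rest of the epithelium, the SR/SI rule cells had higher levels of Enpp2, Slc4a4, Slc20a2, Angpt1, S1pr1, Gja1 and Nectin4, among others. Most genes of the lists compared did not pass 2-fold in one direction in both libraries. Of 7308 genes with at least 20 CPM in either class of both libraries, 142 (1.94%) were at least 2-fold higher in both libraries and 146 (2.0%) at least 2-fold lower, and the median log2 ratio of all of them was -0.01 in each library. Because the cells were picked by their own counts, nothing is read from these shares. Limited to shared barcodes in the maxillary library, the counts were 176 and 178. With shared barcodes left out of both libraries they were 43 and 45.

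Enpp2 encodes autotaxin, the secreted enzyme that makes lysophosphatidic acid, and lies at chr15:54838901-54952892. Its level was 641 CPM (interval 619 to 663) in the maxillary and 758 CPM (737 to 780) in the mandibular rule cells, and 19.5 and 91.5 CPM in the other epithelium. The log2 ratios were 5.04 and 3.05, and 4.59 within shared maxillary barcodes. At 2000 UMIs per cell, Enpp2 was found in 45.3% and 50.5% of rule cells, in 3.01% and 9.11% of other epithelial cells and in 0.852% of leukocytes in each library. The separation of rule cells from other epithelium for Enpp2 therefore remained at equal depth.

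Slc4a4, the electrogenic sodium bicarbonate cotransporter (chr5:88886818-89239653), stood at 878 CPM (853 to 904) and 1111 CPM (1085 to 1137), against 89.6 and 276 CPM. Slc20a2, a sodium-dependent phosphate transporter, stood at 339 and 449 CPM against 74.6 and 106 CPM. Its log2 ratios were 2.18 and 2.09, but the maxillary one was -0.21 once shared barcodes were left out. Cnnm4, a magnesium transporter, stood at 29.4 and 41.7 CPM against 8.75 and 13.0 CPM. Of 16 tested genes for phosphate, calcium and ion transport outside the rule, these 3 were at least 2-fold higher in both libraries and 1, the calcium buffer Calb1, was lower (16.2 and 41.0 CPM against 119 and 413 CPM). The other 12 lay between, and the medians of the list were 0.01 and 0.40 on the log2 scale.

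The remaining genes with the largest ratios came from several functions. Mlip, Jph4, the potassium channel Kcnb2, the DNA sensor Aim2 and S1pr1, a receptor for sphingosine 1-phosphate, were named by the size of the smaller of their ratios. Jph4 stood at 158 and 186 CPM against 8.75 and 22.3 CPM, and S1pr1 at 57.9 and 71.3 CPM against 4.97 and 13.0 CPM. Angpt1, the ligand of the endothelial receptor Tie2, stood at 311 (296 to 326) and 310 CPM (296 to 324) against 53.6 and 56.2 CPM. The same ranking gave the collagen-binding integrin Itga1, the secreted Pi15, the sialic acid enzyme Npl, the surface protein Cd109 and Pdgfra, a receptor for platelet-derived growth factor. The maxillary ratios of Kcnb2 and Aim2 were -0.73 and -0.46 with shared barcodes left out, opposite to the mandibular ones of 3.08 and 2.87.

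**Figure D2:**
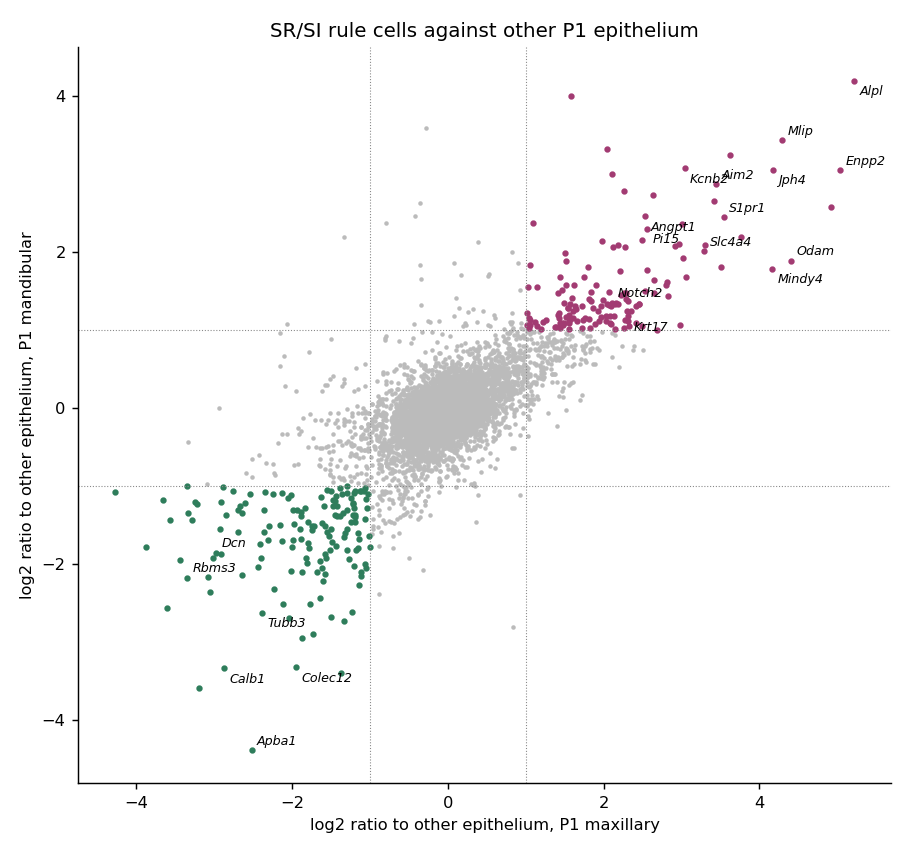
Each point is 1 of the 7308 genes compared, genes of the rule included, at its log2 ratio of CPM between SR/SI rule cells and other epithelial cells in the maxillary (horizontal) and mandibular library (vertical); dotted lines mark 2-fold. Coloured points are the 142 genes higher and the 146 lower in both libraries, and Alpl, a gene of the rule, sits far out at 5.22 and 4.20.

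Genes lower than in the rest of the epithelium included Calb1, Apba1, Tubb3, Rbms3, Colec12, Dcn, Kcnma1, Klf4 and Moxd1. Apba1 stood at 10.1 and 3.48 CPM against 58.3 and 73.0 CPM, and Klf4, a transcription factor of epithelial differentiation, at 23.4 and 31.9 CPM against 93.6 and 110 CPM. The log2 ratio of Kcnma1 was -1.82 over all maxillary rule cells but -0.82 within shared barcodes. With shared barcodes left out, the maxillary ratios of Apba1 (0.79), Colec12 (0.79), Tubb3 (0.31) and Kcnma1 (0.06) turned to the higher side. The rest of the maxillary epithelium also held cells of other organs, since its markers of olfactory and respiratory epithelium summed to 398 CPM, against 1.76 CPM in the mandibular rest and 32.8 and 1.58 CPM in the rule cells. All 4 globin genes compared were lower in the rule cells as well. The part of these transcripts in the ratios was not tested beyond the values within shared barcodes.

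Odam and Mindy4 were found in a part of the SR/SI rule cells. Odam encodes a secreted protein of the junctional and maturation-stage enamel epithelium and lies at chr5:87885029-87894174 (plus strand). It was found in 110 of 347 maxillary (31.7%, exact binomial interval 26.8 to 36.9) and 118 of 384 mandibular rule cells (30.7%). Its level was 535 and 658 CPM, against 25.2 and 178 CPM in other epithelium and 16.4 and 10.9 CPM in ameloblast lineage cells. Odam was not particular to the rule cells, since epithelial cells with at least 3 UMIs of Krt13, Krt4 and Krt6a had 140 and 1143 CPM. Mindy4, a deubiquitinase gene at chr6:55203383-55320222, stood at 851 and 1413 CPM against 47.7 and 408 CPM in other epithelium. It was found in 42.1% and 43.2% of the rule cells, against 11.7% and 24.7% of other epithelial cells. At 2000 UMIs per cell these Mindy4 shares were 28.7% and 28.4% against 4.96% and 11.3%, with 0.284% and 1.14% in leukocytes. Among the 25 maxillary cells with their own barcodes, both genes were at 4.20 CPM.

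At the edge of the rule, cells with a sum of 2 UMIs of the SR/SI genes (just outside, 109 maxillary and 68 mandibular cells) and with a sum of 3 (just inside, 55 and 58 cells) differed by degree. Odam stood at 92.7 CPM just outside and 311 CPM just inside in the maxillary library, and at 543 and 1198 CPM in the mandibular. Enpp2 stood at 51.5 and 126 CPM in the maxillary and at 309 and 325 CPM in the mandibular library. Jph4 stood at 9.44 and 31.1 CPM in the maxillary and at 59.8 and 49.7 CPM in the mandibular library. In the mandibular library, cells just outside the rule therefore lay close to those just inside for Enpp2 and Jph4.

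In Notch signaling, ligands such as Jag1 and Jag2 on one cell bind receptors on its neighbour, the cleaved receptor joins the DNA-binding protein Rbpj, and genes of the Hes and Hey families are turned on. Both other receptors that could be compared were higher in the SR/SI rule cells. Notch2 (chr3:98013527-98150361) stood at 465 CPM (447 to 484) and 527 CPM (509 to 545), against 108 and 207 CPM in other epithelium, and Notch3 at 49.1 and 52.8 CPM against 17.4 and 13.3 CPM. At 2000 UMIs per cell, Notch2 was found in 52.9% and 54.7% of rule cells, 15.6% and 27.3% of other epithelial cells and 18.5% and 24.7% of leukocytes, which express Notch2 themselves. The 2 receptors had log2 ratios of 2.11 and 1.35 (Notch2) and 1.50 and 1.99 (Notch3), and within shared maxillary barcodes 1.89 and 3.42.

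The ligands and targets did not follow as a group. Jag1 stood at 64.9 and 67.0 CPM against 25.0 and 37.1 CPM, and Jag2 at 35.1 and 28.3 CPM against 51.6 and 69.2 CPM, so neither was 2-fold apart in both libraries, although Jag2 was lower in both (-1.10 and -1.29) within shared maxillary barcodes. Of 10 tested targets and modifiers, none was 2-fold higher or lower in both libraries, and their medians were 0.14 and 0.08. Hes1, a direct target, stood at 183 CPM (171 to 195) and 301 CPM (288 to 315) against 157 and 168 CPM. Heyl was below the 20 CPM needed for comparison in both libraries, at 17.7 and 19.9 CPM against 3.28 and 3.51 CPM, with log2 ratios of 2.43 and 2.50. Against ameloblast lineage cells the picture was wider apart. Hes1 was at 4.10 and 7.42 CPM there and Notch2 at 6.15 and 11.1 CPM, while Jag2 was higher there, at 77.3 and 91.1 CPM.

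**Figure D3:**
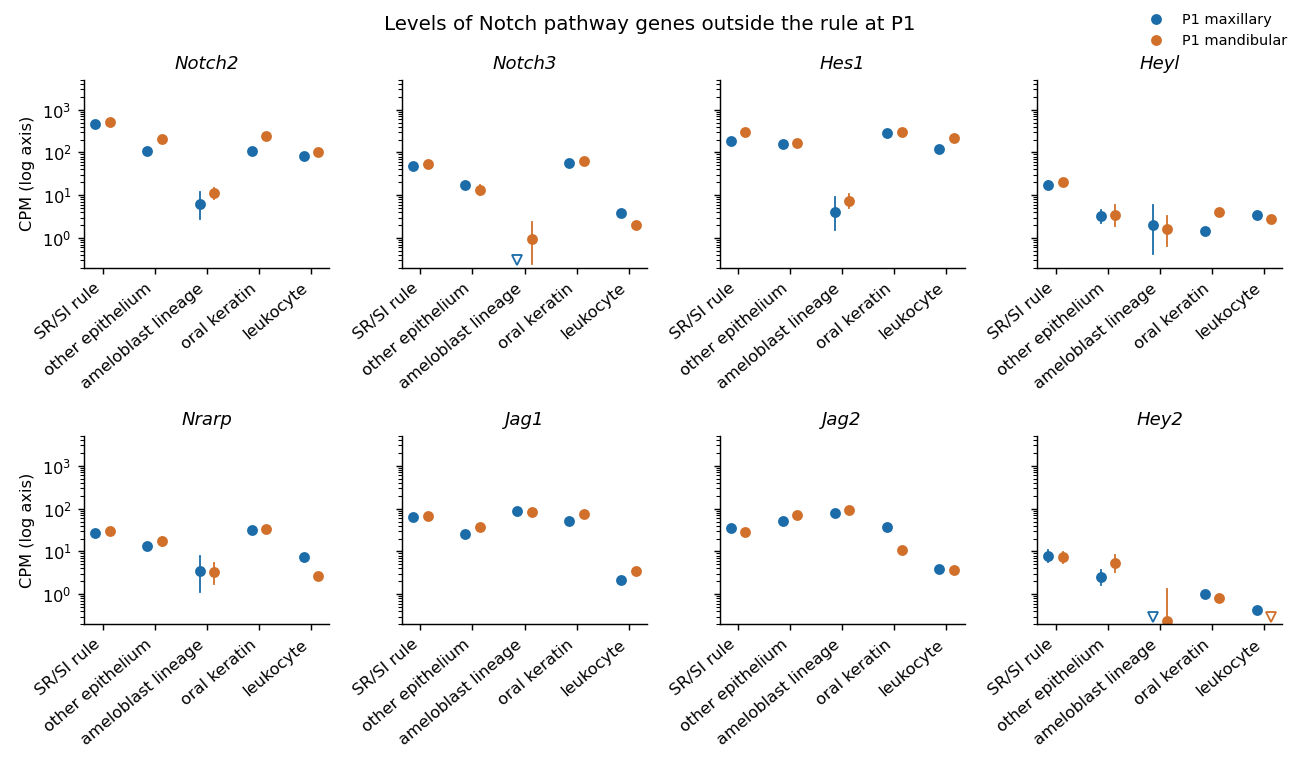
Level in CPM (log axis) of Notch pathway genes outside the rule in 5 classes of P1 cells, with 1 point per library and exact 95% Poisson bars on the first 3 classes; open triangles stand for 0 UMIs. Notch2 and Notch3 are higher in SR/SI rule cells than in other epithelium of both libraries, Hes1 is within 2-fold of other epithelium and low in ameloblast lineage cells, and Jag2 is higher in ameloblast lineage cells than in rule cells.

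Those promoters of these genes that had an entry were searched for GTGGGAA, the core sequence that Rbpj binds, on both strands (TTCCCAC on the other), in windows of 250 bases before to 50 after each RefSeq start site in GRCm38.p6. It stood in 2097 of 32851 promoters (6.38%). Among the targets and modifiers, 13 genes had an entry, the other 5, Hes1, Hey1 and Heyl among them, were not searched, and the promoters of Hes5, Hey2 and Lfng held it (3 of 17 promoters). None of the 4 promoters of Notch receptors held it, 1 of 9 promoters (11.1%, that of Odam) found for the 10 genes named towards the Alpl side described further on, and none of the 10 promoters found for the 15 genes named as highest against the rest. The promoter of Hey2, a Notch target (chr10:30842734-30843033, minus strand, motif from positions -207 and -4), and that of Odam (chr5:87884760-87885059, plus strand, motif from position -157) are shown 5′ to 3′ because the first holds a pair of matches and the other belongs to the gene ranked first towards the Alpl side. Capitals mark the motif.
Hey2: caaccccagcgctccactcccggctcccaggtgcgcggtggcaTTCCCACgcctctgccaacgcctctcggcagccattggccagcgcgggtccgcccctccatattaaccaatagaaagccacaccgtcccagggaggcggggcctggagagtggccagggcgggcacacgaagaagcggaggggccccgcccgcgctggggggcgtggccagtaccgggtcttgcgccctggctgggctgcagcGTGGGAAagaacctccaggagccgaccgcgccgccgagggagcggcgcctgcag
Odam: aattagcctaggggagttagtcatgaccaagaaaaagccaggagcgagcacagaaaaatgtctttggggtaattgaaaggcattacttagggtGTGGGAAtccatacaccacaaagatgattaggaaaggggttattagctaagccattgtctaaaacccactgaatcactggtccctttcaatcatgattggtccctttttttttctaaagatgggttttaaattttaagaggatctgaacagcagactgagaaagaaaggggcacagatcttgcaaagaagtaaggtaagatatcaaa
A match is a description of letters in the window, and binding was not measured.

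Cell junction and matrix genes were higher in part. Of 9 tested desmosome genes, Dsp and Pkp1 were at least 2-fold higher in both libraries and none was lower, with medians of 1.33 and 0.50. Desmoplakin (Dsp), which anchors keratin filaments to desmosomes, stood at 662 and 678 CPM against 225 and 318 CPM. Of 7 junction genes, Gja1 (connexin 43 of gap junctions) stood at 1519 and 1754 CPM against 417 and 722 CPM, and Nectin4 at 245 and 235 CPM against 29.4 and 73.2 CPM. Of 9 genes for glycosaminoglycans and their carriers, the hyaluronan synthase Has3 (71.0 and 66.4 CPM against 15.3 and 19.6 CPM) and the syndecan Sdc1 (132 and 145 CPM against 45.0 and 71.7 CPM) were higher. Vcan, the large hyaluronan-binding proteoglycan versican, stood at 556 and 521 CPM against 215 and 385 CPM and was below 2-fold in the mandibular library. Of 9 basement membrane and hemidesmosome genes, none was higher and Col4a5 was lower, with medians of 0.58 and -0.37. Within shared maxillary barcodes 8 of that list were compared, none was higher and Col17a1 was lower.

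Among 5 tested keratins outside the rule, Krt17 was higher, at 3391 CPM (3341 to 3442) and 3087 CPM (3044 to 3131) against 686 and 1361 CPM. Krt15, Krt8 and Krt18, keratins of basal and simple epithelia, were lower when all maxillary cells were used, but within shared maxillary barcodes Krt8 stood at 0.14 on the log2 scale. Of 11 dental transcription factors, only Irx1 was higher in both libraries (80.3 and 83.8 CPM against 16.2 and 32.4 CPM), and none was lower, but within shared maxillary barcodes Sp6 was lower as well (-1.48 and -1.46). Of 8 genes of the fibroblast growth factor (FGF) pathway, none was higher and the ligand Fgf9 with the response genes Etv5 and Dusp6 was lower. Medians of the FGF list were -1.06 and -0.91. Of 13 genes for bone morphogenetic proteins and transforming growth factor beta, Fst, Tgfb2 and Tgfbr2 were lower. Among 6 Wnt ligands, 3 ectodysplasin genes and 8 insulin-like growth factor genes, no gene passed 2-fold in one direction in both libraries. The same held for 16 S phase genes and 19 G2/M genes. In both libraries, 1 each was lower among 9 Wnt receptors and inhibitors (Lgr5) and 9 Hedgehog genes (Cdon). Within shared maxillary barcodes Wnt10a (-1.04 and -1.93), Etv4, Sfrp5 and Jag2 were lower, Igfbp2 (1.58 and 1.27) and Slc2a1 were higher, Cdon was not called (-0.85 and -1.07), and Lgr5 was too low to compare.

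Ameloblast lineage cells, the neighbours of the stratum intermedium that make enamel matrix, gave a far wider contrast. They were the epithelial cells with at least 10 UMIs of Ambn, Enam and Mmp20, 109 in the maxillary library (every one with a shared barcode) and 327 in the mandibular, with medians of 13463 and 13301 UMIs, near those of the SR/SI rule cells. Of 7273 genes, 1265 (17.4%) were at least 2-fold higher in the rule cells of both libraries and 688 (9.46%) at least 2-fold lower. The median log2 ratio of all genes was 0.32 and 0.33, so a list is read against that shift. The rule excluded enamel matrix transcripts, and Mmp20, Enam and Ambn were lower by construction.

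The cell cycle lists differed as whole groups. The ameloblast lineage class needed at least 10 UMIs of Ambn, Enam and Mmp20, so cells of that lineage with fewer are not covered. All 17 tested G2/M genes were at least 2-fold higher in the SR/SI rule cells, with medians of 3.32 and 4.14, and 15 of 16 S phase genes, with medians of 2.58 and 2.47. Mki67, a protein of proliferating cells, stood at 137 and 115 CPM against 13.7 and 6.49 CPM. Top2a, a topoisomerase of dividing cells, stood at 205 and 155 CPM against 10.3 and 5.80 CPM. No cell cycle gene passed 2-fold in one direction in both libraries against the other epithelium, where Mki67 stood at 172 and 125 CPM.

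Signaling genes split between both sides. Eda, Edaradd and Tnfrsf19, the 3 ectodysplasin pathway genes tested, were all higher in the SR/SI rule cells, and the ligand Eda stood at 124 and 134 CPM against 1.37 and 7.65 CPM. Wnt5a (132 and 174 CPM against 4.10 and 5.80 CPM) and Wnt5b were higher, while Wnt3a, Wnt6 and Wnt10a were lower, with Wnt6 at 92.8 and 84.1 CPM against 652 and 610 CPM and Wnt10a at 15.2 and 12.2 CPM against 258 and 232 CPM. Sostdc1, a secreted inhibitor of Wnt and BMP signals, stood at 293 and 264 CPM against 4.10 and 11.1 CPM. Of 12 BMP and TGF-beta genes, Bmp4, Bambi, Smad6, Tgfb2 and Tgfbr2 were lower and none was higher. Ptch1, a receptor and target of Hedgehog signaling, was higher (283 and 264 CPM against 99.1 and 128 CPM), and Shh itself stood at 325 and 335 CPM against 528 and 461 CPM.

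Transport and adhesion genes also divided. Of 17 ion transport genes, 7 were higher in the SR/SI rule cells, Slc4a4, Enpp1, Car2, Car12, Atp1b1, Cnnm4 and Slc12a2, and 4 were lower, Calb1, Atp2b1, Itpr1 and Orai1, which handle calcium. Calb1 stood at 16.2 and 41.0 CPM against 9493 and 9780 CPM, and the plasma membrane calcium pump Atp2b1 at 129 and 111 CPM against 890 and 1055 CPM. Slc20a2 (181 and 201 CPM in ameloblast lineage cells) and Gja1 (984 and 848 CPM), both higher than in the rest of the epithelium, were not 2-fold apart from ameloblast lineage cells in both libraries. Of 8 desmosome genes, 6 were higher and none was lower. Of 8 basement membrane genes, Lama3, Lamb3, Itgb4 and Col17a1, parts of hemidesmosomes and their laminin, were lower, and Lama5 was higher. Of 5 genes of the oxygen response, 4 were higher, among them Vegfa (47.2 and 55.5 CPM against 9.57 and 11.4 CPM) and the glucose transporter Slc2a1. Of 7 insulin-like growth factor genes, 5 were higher, with Igfbp2 at 298 and 392 CPM against 52.6 and 44.7 CPM. By ratio the genes named highest, Alpl of the rule aside, were Cldn10, Pi15, Cpxm1, Slc39a8, Tagln, Nectin4, Jph4, Enpp2 and Zfp536, and the lowest besides Calb1 and enamel genes were Dspp, Gm13010, Tmem108, Syt10 and Krt27. All 10 genes induced by tissue dissociation were also higher in the rule cells (medians 1.62 and 2.95), and their part in the contrast was not tested.

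Amelx, the main enamel matrix gene, which the rule did not use, gave 28.7 and 114 CPM in the SR/SI rule cells. In leukocytes of the same libraries it gave 18.7 and 180 CPM, so its level in the rule cells was of the order seen in cells that do not make it.

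The SR/SI rule cells fell into unlike sets by Alpl and Vat1l. An Alpl side was taken as cells with at least 2 Alpl UMIs and 0 of Vat1l (262 maxillary and 299 mandibular cells), and a Vat1l side as cells with at least 2 Vat1l UMIs and 0 of Alpl (34 and 28 cells). Median depths were 12656.5 and 14032 UMIs on the Alpl side and 10862 and 11473 UMIs on the Vat1l side. Of 7393 genes, 361 (4.88%) were at least 2-fold higher on the Alpl side of both libraries and 587 (7.94%) on the Vat1l side. The sides were cut by counts of the same cells, so these are descriptions, with a small number of cells on the Vat1l side.

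Odam was close to absent from the Vat1l side, with 0 UMIs in the maxillary and 2.72 CPM in the mandibular library, against 683 and 835 CPM on the Alpl side. Mindy4 stood at 23.6 and 38.1 CPM against 1073 and 1820 CPM, and Angpt1 at 18.8 and 19.0 CPM against 376 and 383 CPM. Mlip, Pi15, Dapl1, Col14a1, Gask1b and Metrnl were the other genes with the largest ratios towards the Alpl side. Notch2 stood at 543 and 620 CPM on the Alpl side and 47.1 and 92.4 CPM on the Vat1l side, and Hes1 at 206 and 333 CPM and at 11.8 and 32.6 CPM. The Notch target Hey2 went the other way, at 3.49 and 4.92 CPM on the Alpl side and 28.3 and 35.3 CPM on the Vat1l side. Among the listed SR/SI markers outside the rule, 4 were compared between the sides. Jph4 and Notch2 were at least 2-fold higher on the Alpl side, and Tafa4 and Hey2 on the Vat1l side. Of 4 keratins outside the rule, Krt17 and Krt7 were at least 2-fold higher on the Alpl side and Krt18 was lower, and Irx1 was at 98.3 and 103 CPM against 0 and 5.44 CPM.

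The Vat1l side had higher levels of FGF response genes, G2/M genes and Shh. Vwde, a secreted protein, stood at 1835 CPM and 1851 CPM there against 72.7 and 78.5 CPM on the Alpl side, and Tafa1 at 810 and 419 CPM against 6.22 and 2.25 CPM. Col22a1, Camk4, Sema3e, Etv4, Nrg1, Egfem1 and Trpc5 completed the genes with the largest ratios. Of 9 FGF genes, 7 were at least 2-fold higher on the Vat1l side, with medians of -3.13 and -3.32 for Alpl side over Vat1l side. Etv4, a transcription factor induced by FGF, stood at 151 and 125 CPM against 4.48 and 2.87 CPM, and the ligand Fgf9 at 80.1 and 256 CPM against 3.98 and 6.15 CPM. Of 22 G2/M genes, 18 were higher on the Vat1l side (medians -1.69 and -1.68), but of 15 S phase genes only Dtl and Pola1 were (medians -0.25 and -0.56). Shh stood at 772 and 881 CPM against 264 and 254 CPM and the dental transcription factor Sp6 at 608 and 476 CPM against 57.8 and 54.7 CPM. Globin and dissociation genes moved with the sides as well, since 4 of 4 globins and 7 of 10 dissociation genes were higher on the Alpl side, and their part was not tested. The Vat1l side is given no cell type name here.

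**Figure D4:**
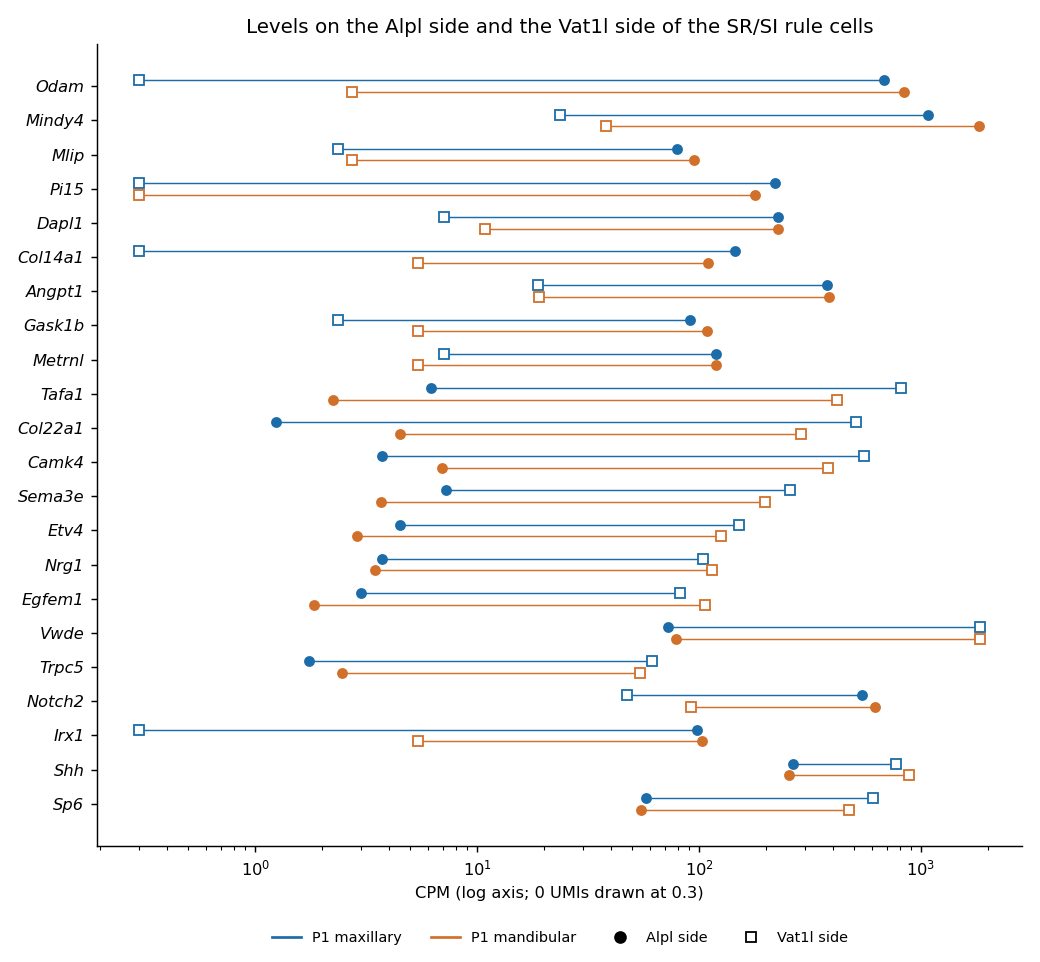
Level in CPM (log axis, 0 UMIs drawn at 0.3) of genes outside the rule on the Alpl side (filled circles) and the Vat1l side (open squares) of the SR/SI rule cells, with 1 line per gene and library. Odam, Mindy4 and Notch2 lie towards the Alpl side and Vwde, Tafa1 and Sp6 towards the Vat1l side in both libraries.

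The 25 maxillary SR/SI rule cells with a barcode of their own were unlike the others. Their median was 5325 UMIs, against 12533.5 in the 322 with a shared barcode, and Jph4 stood at 25.2 CPM, against 164 CPM. Odam stood at 4.20 CPM, against 561 CPM in the shared ones and 658 CPM in the mandibular rule cells. Of the 25, 6 held at least 2 UMIs of Cyp2g1, Cyp2a5 and Ermn, genes listed for olfactory epithelium, and none of the other rule cells did. Cyp2a5 stood at 294 CPM there and markers of olfactory and respiratory epithelium summed to 638 CPM, against 3.27 CPM in the shared cells. Wfdc18, a gland gene, stood at 1759 CPM, with at least 3 UMIs in 1 cell. Markers outside the rule thus go against the SR/SI label for the 6 cells with olfactory transcripts, and Odam and Jph4 were low over the 25.

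A comparison of jaws rested on these sets and was confounded by them. Between the 25 cells with their own barcode and the mandibular rule cells, Fstl5 (693 against 0.158 CPM), Otx2os1, Aox2, BC051076 and Zmat4 had the largest ratios towards the maxillary, and Mindy4, Odam, Vwde, Col4a2 and Amelx towards the mandibular. With the 322 shared cells in their place, an alternative added after the data had been seen, Lsamp (370 against 110 CPM), Tafa1, Col22a1, the guidance molecule Sema3a (207 against 91.1 CPM) and Nbea were higher in the maxillary library. S100a8, S100a9, Hbb-bt, Hba-a2 and Hba-a1 were higher in the mandibular. The last 5 are neutrophil and globin genes, and Hba-a1 and Hba-a2 are near-identical copies whose reads may be split between them. Each of the 5 genes towards the mandibular in the first version had 1 UMI in the 25 cells. The 5 genes named each way thus differed between the versions, and jaw and barcode origin cannot be told apart.

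**Figure D5:**
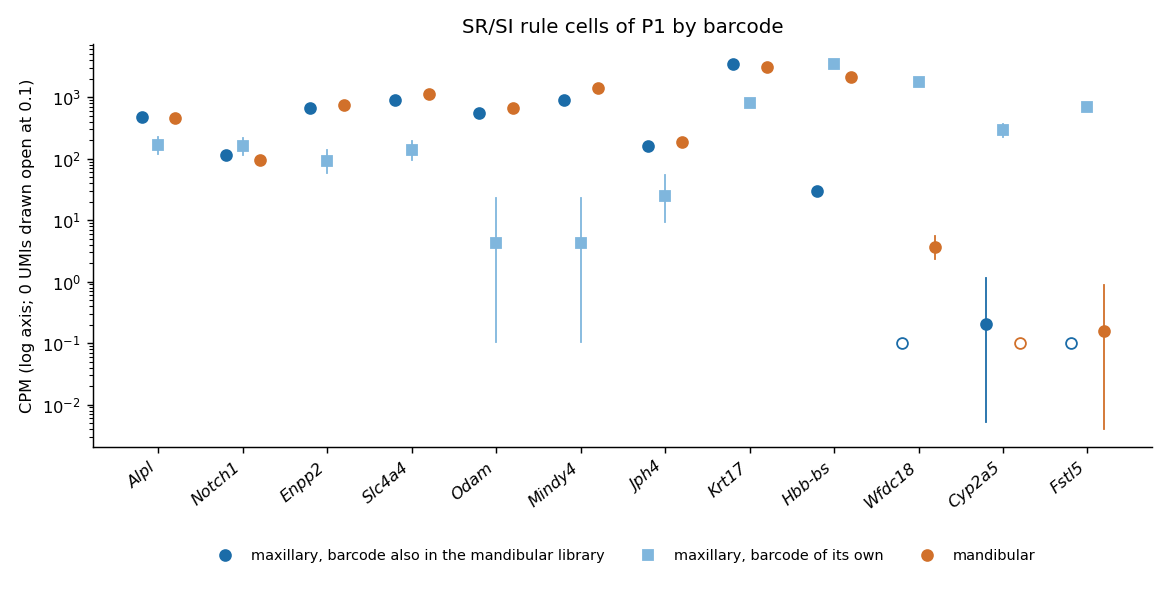
Level in CPM (log axis, 0 UMIs drawn open at 0.1) of 12 genes in maxillary SR/SI rule cells with a shared barcode (322 cells), maxillary rule cells with their own barcode (25 cells) and mandibular rule cells (384 cells), with exact 95% Poisson bars. Shared maxillary and mandibular cells lie within 2-fold of each other for Alpl through Krt17, while the 25 cells are low in Odam and Mindy4 and high in Cyp2a5, Fstl5 and Wfdc18, the last with at least 3 UMIs in 1 cell.

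Transcripts of other cell types were present as well. Keratinizing skin markers summed to 95.3 and 71.2 CPM, with 7 and 6 of 8 genes detected, Krt10 as the most abundant (37.4 and 30.4 CPM) and Ivl at 0, and 29 and 33 cells held at least 3 UMIs over 4 of them. Endothelial markers summed to 15.2 CPM in the maxillary and 89.2 CPM in the mandibular cells, where 22 cells held at least 2 UMIs of Pecam1 and Cdh5. Leukocyte markers summed to 53.2 and 40.6 CPM, with C1qb (16.4 CPM) and Fcer1g (10.4 CPM) as the most abundant. Erythroid transcripts summed to 347 CPM in the maxillary cells, 56.2 CPM in those with a shared barcode and 4232 CPM in the mandibular, led by Hbb-bs (189, 29.9 and 2132 CPM). Osteoblast markers summed to 158 and 183 CPM through Ibsp (95.9 and 108 CPM), with Bglap2 at 0 in the maxillary cells. Ibsp, a bone matrix protein, was itself at least 2-fold higher than in the rest of the epithelium (8.45 and 30.6 CPM) and than in ameloblast lineage cells (2.73 and 5.80 CPM). Mesenchyme markers summed to 149 and 231 CPM, led by Pdgfra (57.5 and 76.7 CPM), which is also among the genes named as higher than in the rest, but 3 of the 7 genes are the collagens that the rule limits. Leaving out cells with at least 2 UMIs of Pecam1 and Cdh5, added after the data had been seen, kept 708 cells and gave 146 genes higher and 156 lower than the rest. The part of the other transcripts was not tested.

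At E15.5 the same rule took 63 maxillary and 28 mandibular cells, with 0 cells in the ameloblast lineage class of either library. These were chosen by other genes, since most UMIs of the 4 SR/SI genes came from Notch1 in 46 of 63 maxillary cells and 9 of 28 mandibular cells, from Alpl in 7 and 8 and from Vat1l in 3 and 7. The stages are therefore compared as cells that meet 1 rule and not as the same cell type, and the 28 mandibular cells give wide intervals. Of 7403 genes, 329 (4.44%) were at least 2-fold higher at P1 in both jaws and 197 (2.66%) at least 2-fold lower.

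Genes named highest at P1 were Odam, Mindy4, Pi15, Lrrc4c, Mlip, Jph4, Enpp2, Lhfp, Prkg1 and Cntnap2. Enpp2 stood at 5.72 CPM (2.30 to 11.8) and 33.0 CPM (20.9 to 49.6) in the E15.5 maxillary and mandibular cells, against 641 and 758 CPM at P1. Odam stood at 13.1 CPM (7.47 to 21.2) and 1.44 CPM (0.0364 to 8.01), against 535 and 658 CPM, and its 16 maxillary UMIs at E15.5 were all in 1 cell. Of 15 ion transport genes, 7 were higher at P1 and none was lower. At E15.5, Slc4a4 stood at 42.5 and 165 CPM and Slc20a2 at 55.6 and 58.9 CPM. Gja1 stood at 248 and 375 CPM at E15.5 and at 1519 and 1754 CPM at P1, and Notch2 at 117 and 174 CPM and at 465 and 527 CPM. Notch1, a gene of the rule, stood at 176 and 106 CPM at E15.5 and at 119 and 97.2 CPM at P1.

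Genes named highest at E15.5 were Krtdap, Dmkn, Lmo1, Krt15, Adamts18, Thsd7a, Pde4b, Cldn7, Crabp2 and Dusp6. Krtdap, a gene of stratifying epidermis, stood at 284 and 168 CPM at E15.5 against 11.1 and 4.59 CPM at P1, and Krt15 at 1083 and 363 CPM against 10.7 and 40.5 CPM. Of 6 keratins outside the rule, Krt15, Krt8, Krt18 and Krt19 were higher at E15.5 and Krt17 at P1. All 3 tested keratinizing skin genes, Krt1, Krt10 and Krtdap, were higher at E15.5, but 1 cell held 165 of 264 Krt10 UMIs and 1 cell 74 of 110 Krt1 UMIs in the maxillary E15.5 library, and 1 cell 49 of 89 Krt10 UMIs in the mandibular. At least 3 UMIs over Krt1, Krt10, Krtdap and Sbsn were held by 25 of 63 maxillary and 10 of 28 mandibular E15.5 cells, against 29 of 347 and 33 of 384 at P1. At least 3 UMIs of the gland gene Wfdc18 were held by 9 of 63 and 0 of 28 E15.5 cells (exact binomial upper bound 12.3%), against 1 of 347 and 4 of 384 at P1. Of 3 tested mesenchyme markers, Dcn and Postn were at least 2-fold higher at E15.5 in both jaws and Pdgfra at P1. Medians of these 3, for P1 over E15.5, were -4.29 and -1.55 on the log2 scale. The part of these cells and transcripts in the stage contrast was not tested.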

How the data were processed

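The authors deposited raw UMI counts per gene and barcode, made from 10x Genomics 3′ libraries with Cell Ranger 7.0.1 on mm10, for 32285 genes in each of 4 libraries. A count is the number of distinct captured molecules, so levels are compared between cells for one gene and not between genes. The study removed doublets in its own analysis with scDblFinder, and whether the deposited barcodes had been filtered for them is not given in the sources used here. Doublets were kept in the main values, and Scrublet (in scanpy 1.11.5), with 0.8% of barcodes expected as doublets per 1000 barcodes, served as an alternative.

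UMIs were summed over each class of cells in a library and divided by the class total (CPM), with exact Poisson intervals, and ratios carry exact binomial intervals (Python 3.11.15, NumPy 2.4.6, SciPy 1.17.1, pandas 2.3.3, figures with Matplotlib 3.10.9). All intervals are at 95% and cover counting error only. A count of 0 was set to 3 UMIs in a ratio, and no ratio was formed where both classes had at most 3. A gene was compared where either class reached 20 CPM in both libraries, and counted as higher or lower where it passed 2-fold in one direction in both. The jaw of the 322 maxillary rule cells with a shared barcode is not known, so passing in both libraries may not be independent agreement. With 1 library of 6 pooled tooth organs per stage and jaw, no test was run. The calculation was tested on simulated counts.

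Among genes of 50 CPM or more in the higher class, those with the largest ratio in the library nearer to 0 were named, 15 higher and 10 lower than the rest of the epithelium, 10 each way in the other comparisons and 5 each way between jaws, besides the genes of the rule and members of the gene lists. Results for some genes are not reported here. The cells, the gene lists and the thresholds were chosen with earlier results of these data known. Alternatives changed the UMI and marker minimums, the mitochondrial limit, shared barcodes, doublets, reference cells, thinning, weighting of cells and the filter on low genes. Gene positions are those of GENCODE M21 on GRCm38 (mm10), and promoter sequences are from RefSeq.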

Additional observations from a re-analysis of the deposited data

Results flagged for a closer look

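Of the shared barcodes dropped from the P1 mandibular library, 127 met the SR/SI rule with their mandibular counts, and 96 of these were also among the 322 maxillary rule cells with a shared barcode. They stood out because they are signal in counts that the comparisons left out. Their copies were shallower by a nearly constant factor, with a median log2 ratio of 2.08.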

How the results depend on the processing

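The treatment of shared barcodes moved several values. With shared barcodes left out of both P1 libraries, 409 SR/SI rule cells were left in place of 731, and 43 genes were higher and 45 lower than in the rest of the epithelium, in place of 142 and 146. With shared barcodes kept in the mandibular library only, 43 were higher and 41 lower, among 536 rule cells. Under both settings the ratio to the rest turned over in the library nearer to 0 for Aim2 (-0.46), Kcnb2 (-0.73), Slc20a2 (-0.21), Apba1 (0.79), Colec12 (0.79), Kcnma1 (0.06) and Tubb3 (0.31). No ameloblast lineage cell was left in the maxillary library under either setting, so that comparison gave no value. Limited to shared barcodes in the maxillary library, chosen after seeing the data, 176 genes were higher and 178 lower. A reference of cells with 0 UMIs of the 4 SR/SI genes gave 237 higher genes, and mean CPM per cell gave 92 lower genes. The cause of these moves was not tested. Comparing only genes from 50 CPM left fewer genes, with 58 lower than the rest and 626, in place of 1265, higher than in ameloblast lineage cells.

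The other settings kept the number of rule cells between 530 and 908, and the genes higher than the rest between 96 and 176. Of 360 combinations of a named gene and a setting, 346 kept their direction, of which 232 stayed within the counting interval of the reported ratio and 114 moved outside it. No paired analysis was possible because each stage and jaw has 1 library and no test was run. Depth limits low genes such as Heyl, and the 25, 28 and 34 cells of the smallest sets give wide intervals.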
